A study of Mus musculus with 2 samples.

Results

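The complement genes described here are 9 of the 55357 genes in the deposited gene list, taken by symbol: C1qa, C1qb, C1qc, C2, C3, C3ar1, C5ar1, Cfb and Cfp. All 9 were present under 1 identifier each. Their UMI counts (unique molecules, each counted a single time) were followed through the cell types and macrophage states of mouse kidney tumours. RENCA is a mouse kidney cancer cell line, and its tumours were grown in the kidney of BALB/c mice. Droplet single-cell RNA-seq gave 1 library with the genotype label SMYD3 knockdown and 1 with the genotype label WT, called the knockdown label and the WT label from here on. The series text describes immune cells sorted for CD45, the protein encoded by Ptprc, whereas the sample records name epithelial cells and no sort. Age, the number of mice behind a library, the knockdown construct and whether the line was a clone are not given in the sources used here.

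Complement is a cascade of blood and tissue proteins that mark targets for uptake and lysis. C1q, built from chains encoded by C1qa, C1qb and C1qc, starts the classical pathway, and is made mainly by macrophages rather than by the liver. C2 supplies the protease of the classical and lectin C3 convertase, and Cfb, factor B, does so in the alternative pathway. C3 is the central protein that both convertases cleave, and Cfp, properdin, stabilises the alternative convertase. C3ar1 and C5ar1 encode the receptors for the small fragments released from C3 and C5, which attract and activate myeloid cells.

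With 1 library per label there is no replicate, so no test was possible. A difference here is one between a single library and another, and the 95% intervals hold no more than counting error. Levels are UMIs of a gene per 1000000 UMIs of a group of cells (CPM), without correction for gene length, so they are compared for the same gene across cells and not between genes. The libraries held 95803321 and 91523767 UMIs (knockdown label first, here and wherever values come in pairs). After filtering, 9507 and 8682 cells remained, with medians of 9177 and 9816.5 UMIs, and 20 cells in each carried a barcode sequence present in the other library. Marker gates, from which the 9 genes were left out, assigned 87.7% and 88.4% of these cells. They gave 6177 and 6147 monocyte-macrophage cells, 1811 and 1029 neutrophils, 147 and 217 dendritic cells, 88 and 122 T cells and 49 and 97 tumour cells. Another 43 cells, all of the knockdown label, passed a pancreatic acinar gate. The acinar markers had a median of 10.6 and 0 UMIs per 10000 in neutrophils and 5.17 and 0 in T cells. The part of this difference between the libraries in the comparisons was not tested. Ptprc stood at 332 and 363 CPM in the monocyte-macrophage cells and at 10.3 and 13.1 CPM in tumour cells, where the epithelial keratin genes Krt8 (1277 and 1080.2 CPM) and Krt18 (882 and 747 CPM) and the chaperone gene Cryab (1649 and 1971 CPM) were abundant. The other markers of the tumour gate were low, Krt19 at 3.87 and 2.31 CPM, Epcam at 0.646 and 12.3 CPM and Cdh1 at 11.6 and 23.5 CPM. Smyd3 was not lower in tumour cells of the knockdown label, with 29 and 41 UMIs (ratio 1.19, 95% interval 0.712 to 1.96), so the libraries are named by their labels.

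All 9 genes lie on the minus strand (GRCm38/mm10, GENCODE vM21). The 3 C1q genes are neighbours on chromosome 4, with C1qb at chr4:136880129-136886187, C1qc at chr4:136889804-136893065 and C1qa at chr4:136895917-136898803. The 3 genes span 18675 bases, with 3616 bases between C1qb and C1qc and 2851 between C1qc and C1qa. Cfb (chr17:34856374-34862518) and C2 (chr17:34862604-34898265) are 85 bases apart. C3 lies elsewhere on that chromosome (chr17:57203970-57228136), C3ar1 at chr6:122847138-122856161, C5ar1 at chr7:16246743-16259540 and Cfp at chrX:20925454-20931555.

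RefSeq promoter entries were found for 6 of the 9 genes. The sequences in front of C1qb and C1qc are shown because these genes had nearly the same profile over all cells. That of C3 is shown because its profile over macrophage states leaned the other way. Spearman's rho of C1q and C3 over the 10 states was -0.588 and -0.479, a moderate relation. The bases printed lie before the start in both RefSeq (GRCm38.p6) and GENCODE. They cover chr4:136886201-136886450 for C1qb, chr4:136893066-136893164 for C1qc and chr17:57228137-57228386 for C3, and each is written 5′ to 3′ on the minus strand with matches to the motifs searched in capitals.
C1qb: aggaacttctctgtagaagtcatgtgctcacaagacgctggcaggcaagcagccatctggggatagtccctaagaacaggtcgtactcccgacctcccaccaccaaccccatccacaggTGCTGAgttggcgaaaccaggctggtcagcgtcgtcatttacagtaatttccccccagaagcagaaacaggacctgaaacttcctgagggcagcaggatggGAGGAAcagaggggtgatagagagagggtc
C1qc: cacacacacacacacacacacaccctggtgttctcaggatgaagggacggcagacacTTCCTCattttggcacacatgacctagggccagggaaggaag
C3: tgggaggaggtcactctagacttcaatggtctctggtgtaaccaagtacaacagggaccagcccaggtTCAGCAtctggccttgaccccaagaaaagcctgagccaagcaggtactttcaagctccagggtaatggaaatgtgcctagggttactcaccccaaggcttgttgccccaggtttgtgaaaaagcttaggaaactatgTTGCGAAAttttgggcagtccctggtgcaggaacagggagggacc
The motifs were GAGGAA (the ETS-type core bound by the myeloid factor encoded by Spi1), TTGCNNAA (C/EBP-type), TGCTGA (MAF half-site) and TTCNNNGAA (STAT-type), with an interferon-response-type and an NF-kappaB-type motif, each on both strands. C1qb held GAGGAA at 30 and TGCTGA at 131 bases before its RefSeq start, and C1qc held GAGGAA on the other strand, read as TTCCTC. C3 held TTGCGAAA, a match to TTGCNNAA, at 45 bases before its start, and TCAGCA, the reverse complement of TGCTGA, at 182. Such matches are common. Of 32851 RefSeq promoters, 23.3% held GAGGAA, 16.1% TGCTGA and 9.56% TTGCNNAA within 250 bases, against 2.98% for the interferon-response-type motif, 4.65% for the NF-kappaB-type motif and 7.02% for TTCNNNGAA. No match overlapped another in these 3 sequences, and a match is only a description of the letters.

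C1q transcripts came almost wholly from monocyte-macrophage cells. Of all C1qa UMIs in the kept cells, 96.3% and 97.2% lay there, and the shares for C1qb (96.1% and 97.0%) and C1qc (96.4% and 97.3%) were much the same. The level of C1qa was 3995 CPM (95% interval 3981 to 4009) and 3922 CPM (3908 to 3936), that of C1qb 2091 and 1905 CPM, and that of C1qc 2656 and 2556 CPM. The 3 chains together made up 8742 and 8383 of every 1000000 UMIs, which was 114 and 105 UMIs per cell.

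Outside these cells, C1q UMIs were few. The other gates left out cells with 20 or more macrophage-marker UMIs per 10000, counted without Apoe, Cd14, Lyz2 and Fn1. Cells rich in those markers were thus excluded beforehand, and how far the low C1q depends on this limit was not tested. T cells, which should lack C1q, had 3.34 and 3.04 C1q UMIs per cell, neutrophils 2.24 and 2.39, type 1 dendritic cells 3.02 and 3.60, and type 2 dendritic cells 2.84 and 4.25. Migratory dendritic cells, at 15.8 and 4.41, and tumour cells, at 5.12 and 13.02 with a median depth of 28582 and 26952 UMIs, stood higher and are described with the library differences. Fibroblast-gated cells had 2.67 and 18.4 from 6 and 13 cells, and the 14 endothelial-gated cells of the WT label had 13.5, against 3 UMIs in the 1 such cell of the knockdown label. A C1qa UMI was seen in 56.8% and 77.9% of T cells (median depth 3000 and 2641 UMIs) and in 89.3% and 92.5% of monocyte-macrophage cells (median depth 12202 and 11667). With each cell thinned to 1000 UMIs these shares were 31.0% and 40.8% against 67.5% and 68.2%. Shallower cells were left out of the thinning, 1 and 2 T cells, 122 and 115 monocyte-macrophage cells and 294 and 195 neutrophils. Neutrophils, with a median depth of 1394 and 1325 UMIs, held 672.9 and 801 CPM of C1qa. That level rests on about the T-cell number of C1q UMIs per cell and cannot be told from background. The part of macrophage RNA in it was not tested. Per cell, T cells held 2.74% and 3.33% of the monocyte-macrophage level of C1qa, while 6 other macrophage transcripts (Apoe, Pf4, Ccl8, Selenop, Ms4a7 and Mrc1) ranged from 1.87% for Mrc1 to 5.36% for Ccl8 and from 1.14% to 7.26% for the same genes.

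**Figure D1:**
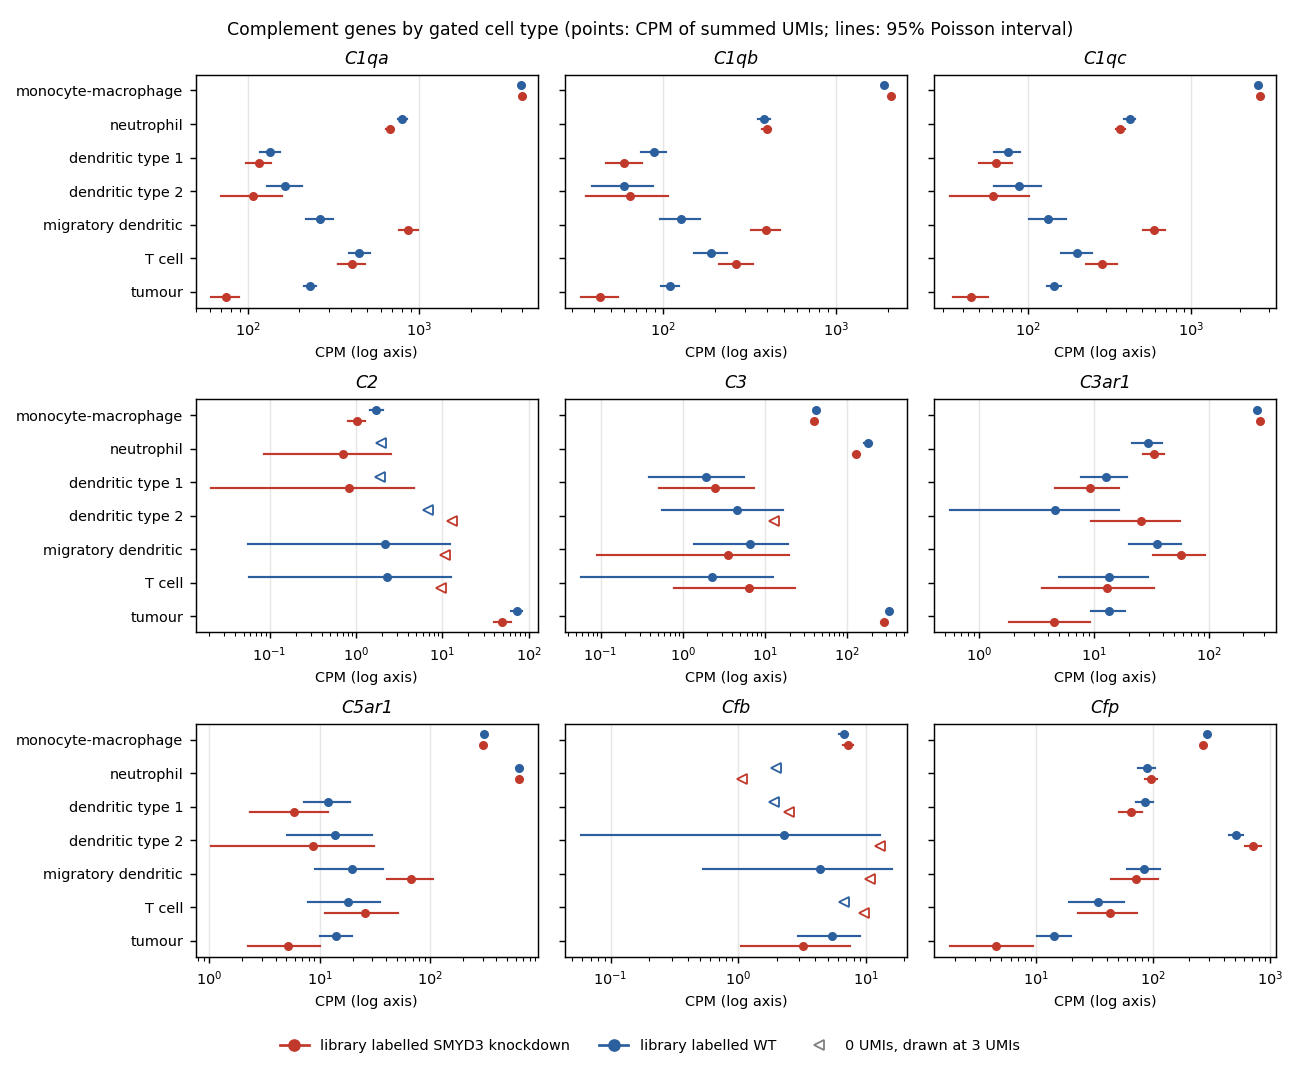
Each panel shows 1 gene; the horizontal log axis is CPM of summed UMIs in 7 gated cell types, points are the 2 libraries, lines are 95% Poisson intervals, and an open triangle marks 0 UMIs drawn at 3 UMIs. C1qa, C1qb, C1qc and C3ar1 were highest in monocyte-macrophage cells, C5ar1 in neutrophils, Cfp in type 2 dendritic cells, and C2 and C3 in tumour cells, while the Cfb intervals of monocyte-macrophage and tumour cells overlapped.

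Within the monocyte-macrophage cells, C1q was split between cells with much and cells with little. Cells at 5000 CPM of C1q or more made up 57.5% and 56.6%, cells under 1000 CPM 32.4% and 31.8%, and only 10.2% and 11.6% lay between. These limits were chosen after the values had been seen. The median cell had 7919 and 8189 CPM, and the quartiles of the cells were 414 and 15137 CPM in the knockdown label and 499.96 and 15247 CPM in the WT label. The chains kept nearly the same proportions everywhere. C1qa made up 45.7% and 46.8% of C1q UMIs, C1qb 23.9% and 22.7%, and C1qc 30.4% and 30.5%. Over the 10 macrophage states, the C1qa share ran from 44.3% to 47.8% in the knockdown label and from 44.4% to 51.3% in the WT label, while the C1q level itself spanned 38.5-fold and 28.4-fold. The C1qb share was the higher of the pair in the knockdown label in 9 of 10 states.

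The states were gated by their own marker genes, each cell going to the state whose threshold it passed by the largest factor, and 1954 and 2048 cells passed none. C1q was highest in Cx3cr1 Vcam1 cells (439 and 515 cells), at 18023 and 17196 CPM. Lyve1 Cd163 cells (1034 and 1184 cells) were next, at 14240.5 and 14547 CPM. In these states 97.3% and 97.9%, and 95.8% and 96.8%, of cells reached 5000 CPM, so nearly every cell carried it. Interferon-response cells followed at 10630.2 and 8617 CPM and cycling cells at 8927 and 7536 CPM. The lowest levels were in Car4 Vcan cells (578 and 605 CPM) and Nos2 Inhba cells (468 and 1141 CPM). At 7.18 and 7.09 C1q UMIs per cell, Car4 Vcan cells stood only a few UMIs above the T cells.

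The other states mixed C1q-high and C1q-low cells. In interferon-response cells 68.7% and 59.8% reached 5000 CPM and 19.4% and 26.8% lay under 1000 CPM, and in cycling cells these shares were 67.8% and 58.6%, and 23.8% and 31.0%. The remaining 4 states had fewer C1q-high cells. Ly6c2 Plac8 monocytes held 4724 and 5512 CPM, but their median cell had only 426 and 642 CPM, and 21.2% and 27.6% of cells reached 5000 CPM. Arg1 Spp1 cells stood at 5550.0 and 4124 CPM, with 43.2% and 30.9% of cells at 5000 CPM or more. MHC class II-high cells stood at 4859.8 and 2919.9 CPM with 33.6% (95% interval 29.2 to 38.2) and 19.6% (15.9 to 23.7) of cells at that level. Mmp12 Gpnmb cells, with 3520.4 and 2313 CPM, had 26.4% (20.6 to 32.9) and 18.7% (14.2 to 23.8).

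**Figure D2:**
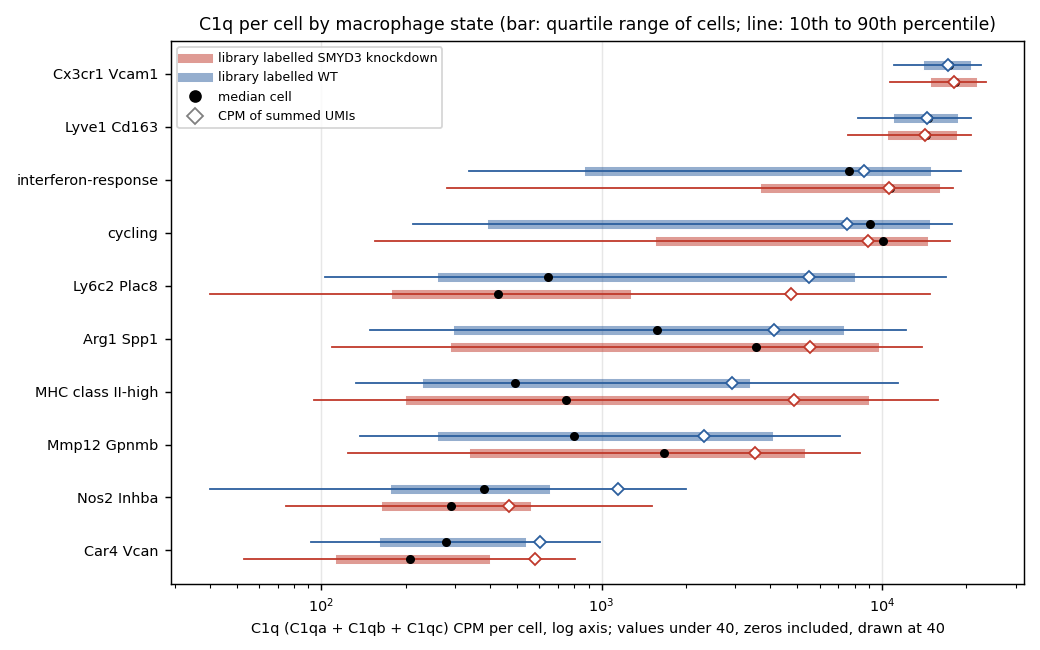
The horizontal log axis is the C1q CPM of single cells (C1qa, C1qb and C1qc summed) in 10 macrophage states and 2 libraries; bars span the quartiles of cells, lines the 10th to 90th percentile, black points the median cell and diamonds the CPM of summed UMIs. In MHC class II-high and Ly6c2 Plac8 cells the summed level (4859.8 and 2919.9, 4724 and 5512 CPM) lies far above the median cell (746 and 489.5, 426 and 642 CPM).

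C3 had another distribution from C1q. Its level was highest in tumour cells, at 283 CPM (439 UMIs) and 327 CPM (849 UMIs), 7.12 and 7.87 times the monocyte-macrophage level of 39.8 and 41.5 CPM. Neutrophils stood between, at 130.3 CPM (95% interval 117 to 144) and 181 CPM (161 to 204), 3.27 and 4.37 times the monocyte-macrophage level. A C3 UMI was present in 15.2% and 19.5% of neutrophils and in 2.27% and 0.820% of T cells, although the median neutrophil held fewer UMIs than the median T cell. At 1000 UMIs per cell the shares were 12.3% and 14.4% of neutrophils, 4.26% and 4.14% of monocyte-macrophage cells and 0 of the T cells. Fibroblast-gated cells gave 1217 CPM in the knockdown label and 125 CPM in the WT label, but from 82 and 32 UMIs in 6 and 13 cells. Because the monocyte-macrophage cells were so many, they still gave 70.0% and 67.8% of all C3 UMIs, tumour cells 9.62% and 18.1%, and neutrophils 8.06% and 5.92%.

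Among the macrophage states, C3 was highest in Ly6c2 Plac8 monocytes, at 136 and 107 CPM, and lowest in Lyve1 Cd163 cells, at 17.3 and 15.6 CPM. That is a range of 7.83-fold and 6.84-fold. Car4 Vcan cells, near the bottom for C1q, had 74.9 and 74.4 CPM of C3. Cx3cr1 Vcam1 cells, at the top for C1q, had 34.0 and 33.4 CPM, and their intervals overlapped those of cycling cells, at 34.6 and 40.8 CPM, in both libraries. In the knockdown label the intervals of neighbours overlapped from MHC class II-high cells, at 54.2 CPM, down to Arg1 Spp1 cells, at 28.4 CPM. In the WT label interferon-response (77.2 CPM), Nos2 Inhba (76.6 CPM) and Car4 Vcan cells could not be ordered. The intervals of interferon-response and Nos2 Inhba cells also overlapped that of Ly6c2 Plac8 cells.

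C2 was highest in tumour cells. It was read in 188 and 346 UMIs in all kept cells, of which the 49 and 97 tumour cells gave 41.0% and 54.9%. Its level there was 49.7 CPM (77 UMIs) and 73.1 CPM (190 UMIs), 48.7 and 42.5 times that of monocyte-macrophage cells at 1.02 and 1.72 CPM. A C2 UMI was found in 67.3% and 58.8% of tumour cells against 1.13% and 1.69% of monocyte-macrophage cells. In no macrophage state did C2 exceed 3.74 CPM, the value of Cx3cr1 Vcam1 cells in the WT label. For Cfb, the neighbour of C2 on chromosome 17, the monocyte-macrophage cells gave 96.4% and 94.3% of 603 and 543 UMIs.

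Cfb was sparse, at 7.24 and 6.68 CPM in monocyte-macrophage cells, with a UMI in 8.35% and 7.61% of them. Tumour cells, at 3.23 CPM (5 UMIs) and 5.39 CPM (14 UMIs), had intervals that overlapped those of the monocyte-macrophage cells in both libraries. Neutrophils held 0 Cfb UMIs in either library, which allows up to 1.06 and 1.96 CPM (3 UMIs). Interferon-response cells had the highest Cfb level, 18.3 CPM (16 UMIs) and 19.1 CPM (19 UMIs). Cx3cr1 Vcam1 (13.3 and 10.3 CPM), Ly6c2 Plac8 (12.5 and 11.5 CPM) and Lyve1 Cd163 cells (11.4 and 9.75 CPM) followed, with overlapping intervals throughout. Car4 Vcan cells, at 1.67 and 1.31 CPM, and Nos2 Inhba cells, with 0 and 2 UMIs, were at the other end.

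Cfp was the most even of the genes among macrophage states. It ran from 161 CPM (Mmp12 Gpnmb) to 374 CPM (MHC class II-high) in the knockdown label and from 200.2 CPM (Nos2 Inhba) to 389.7 CPM (MHC class II-high) in the WT label. Type 2 dendritic cells exceeded every macrophage state, at 712 and 507 CPM, or 2.66 and 1.77 times the monocyte-macrophage level of 268 and 287 CPM. All 19 and 32 type 2 dendritic cells carried a Cfp UMI. Type 1 dendritic cells, at 64.2 and 84.3 CPM, and migratory dendritic cells, at 71.4 and 83.4 CPM, stood below the monocyte-macrophage cells. In neutrophils Cfp per cell was 4.30% and 3.64% of the monocyte-macrophage level, about the share in T cells (4.25% and 3.44%), so the 95.9 and 87.4 CPM there cannot be told from background.

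**Figure D3:**
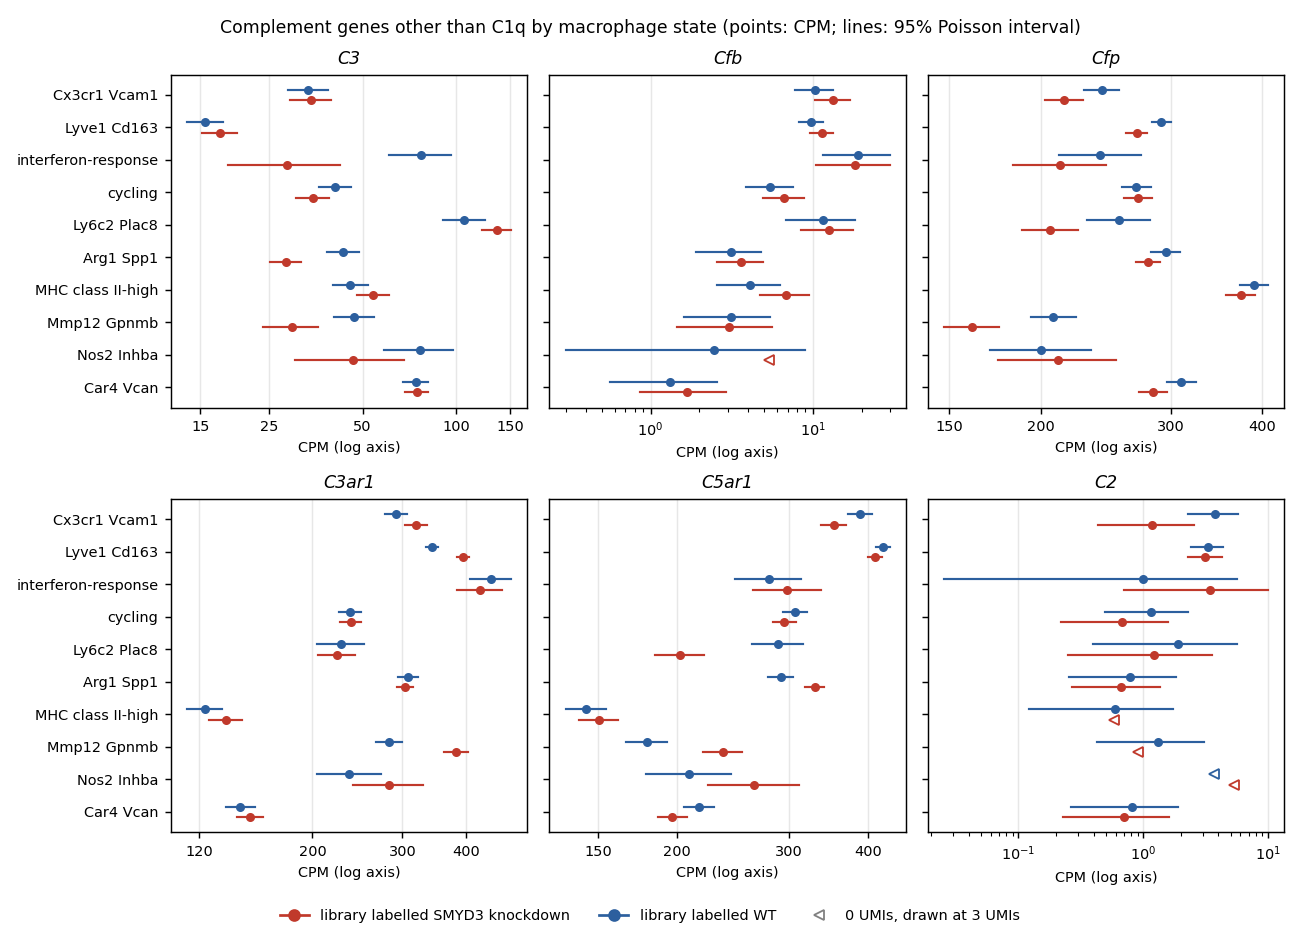
Each panel shows 1 gene, and the horizontal log axis is CPM in 10 macrophage states. The states are ordered from the highest to the lowest C1q of the WT label. Points are the 2 libraries, lines are 95% Poisson intervals, and an open triangle marks 0 UMIs drawn at 3 UMIs. C3 peaks in Ly6c2 Plac8 cells (136 and 107 CPM), Cfp in MHC class II-high cells (374 and 389.7 CPM), C3ar1 in interferon-response cells (426 and 447 CPM) and C5ar1 in Lyve1 Cd163 cells (409.9 and 422 CPM).

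The receptor genes divided the myeloid cells. C5ar1 was higher in neutrophils, at 646 CPM (95% interval 617 to 677) and 645 CPM (605 to 686), than in monocyte-macrophage cells, at 302 and 310.4 CPM, by 2.14 and 2.08 times. C3ar1 was the reverse, at 33.3 and 29.4 CPM in neutrophils against 280.1 and 265 CPM, or 0.119 and 0.111 times. A C5ar1 UMI was present in 53.8% and 52.8% of neutrophils and in 7.95% and 4.92% of T cells. At 1000 UMIs per cell it was 45.5% and 47.8% of neutrophils, 25.1% and 25% of monocyte-macrophage cells and 3.45% and 1.67% of T cells. Neutrophils held 25.7% and 24.8% of the monocyte-macrophage UMIs per cell. For C3ar1 that share was 1.43% and 1.32%, near the share in T cells (1.25% and 1.49%), so it cannot be told from background. Dendritic cells were low in C5ar1, at 16.4 and 13.8 CPM.

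Among macrophage states the receptors varied far less than C1q. C3ar1 spanned 3.15-fold and 3.63-fold, from MHC class II-high cells (135 and 123 CPM) to interferon-response cells (426 and 447 CPM), whose interval overlapped that of Lyve1 Cd163 cells in the knockdown label. C5ar1 spanned 2.73-fold and 2.94-fold, from MHC class II-high cells (150.3 and 143 CPM) to Lyve1 Cd163 cells (409.9 and 422 CPM). Lyve1 Cd163 cells were near the top for both, with 395 and 343 CPM of C3ar1, and Car4 Vcan cells near the bottom for both, with 151 and 144 CPM of C3ar1 and 196 and 216 CPM of C5ar1. Mmp12 Gpnmb cells parted the receptors, with 383 and 283 CPM of C3ar1 and 236 and 179 CPM of C5ar1. Neighbours in the middle of both orders, among them Cx3cr1 Vcam1 and Arg1 Spp1 cells for C3ar1, had overlapping intervals.

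Sorting the monocyte-macrophage cells of each library into 5 equal groups by their C1q level set the other genes against C1q without using the states. From the lowest to the highest group, C1q went from 137 to 19524 CPM and from 193 to 19471 CPM, and the lowest group, at 1.74 and 2.61 C1q UMIs per cell, was no higher than T cells. C3 was lower in the highest than in the lowest group, going from 68.0 to 25.7 CPM (0.378 times, 95% interval 0.336 to 0.425) and from 62.9 to 31.7 CPM (0.504 times, 0.450 to 0.564). Its lowest level was in group 4 of 5, at 21.6 and 20.9 CPM, and not in the group with most C1q. Both receptors were higher in the group with most C1q in each library. C3ar1 reached 357 and 316 CPM there, 2.31 and 2.11 times its level in the lowest group, and C5ar1 went from 185 to 402 CPM and from 183 to 425 CPM. Cfb had the largest relative difference of these genes, from 1.46 to 14.0 CPM (9.56 times, 6.20 to 15.4) and from 1.56 to 11.1 CPM (7.1 times, 4.67 to 11.2). Cfp was nearly level, at 0.893 and 0.975 times.

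**Figure D4:**
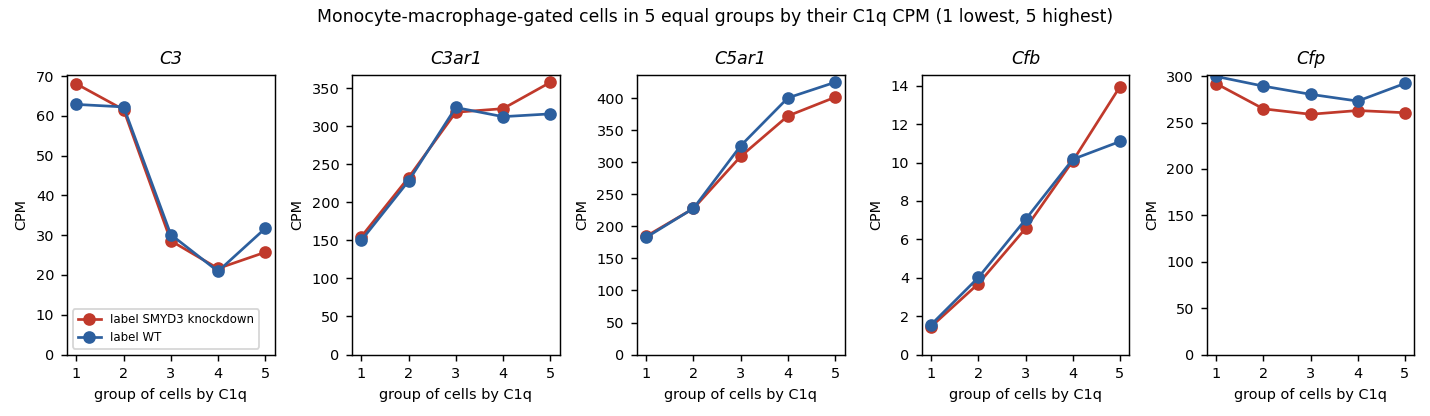
The horizontal axis is the group of monocyte-macrophage cells by C1q CPM, 1 lowest and 5 highest, with 1229 to 1236 cells each; the vertical axis is CPM of summed UMIs, from 0, and lines join the points of a library. From group 1 to group 5 C3 goes from 68.0 to 25.7 and from 62.9 to 31.7 CPM, with its lowest point in group 4 (21.6 and 20.9 CPM). C5ar1 and Cfb go upward in both libraries and C3ar1 in the knockdown label. In the WT label C3ar1 is highest in group 3 (325 CPM) and at 312 and 316 CPM in groups 4 and 5. Cfp lies between 259 and 299.7 CPM.

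Genes with the most similar profile were named by Pearson's r of log2 (CPM plus 5) over 20 groups (10 states in 2 libraries) among 4434 genes. The groups share their libraries and their composition of states, so r is a description. C1qa was nearest to C1qc (r = 0.999) and C1qb (0.998), then to the lipid carrier gene Apoe (0.982), itself one of the genes that gate monocyte-macrophage cells, Tmem37 (0.981) and Frmd4b (0.959). C1qb and C1qc had the same 2 partners, Tmem37 and Apoe, directly after the other chains, and then Frmd4b (0.961) and Igfbp4 (0.962). C3ar1 was nearest to the amino acid transporter gene Slc7a8 (0.950), Atp6v0c (0.908), Cndp2 (0.906), Pmp22 (0.903) and Car13 (0.887). C5ar1 lay nearest to Plod1 (0.908), Ltc4s (0.878), Rap2b (0.871), Dab2 (0.871) and Eid1 (0.865). Cfb, with few UMIs, was nearest to Gbp7 (0.964), Trim30a (0.955), Nfxl1 (0.939), Ifi203 (0.934) and Fcgr1 (0.927). Gbp7, Trim30a and Ifi203 are known as interferon-inducible genes. C3 had looser partners, Irf5 (0.861), Klra2 (0.858), Tra2a (0.850), Sirpb1c (0.848) and Actr3 (0.841), and so did Cfp, with Dok2 (0.909), Olfm1 (0.872), Uggt1 (0.844), Sec63 (0.838) and Rpn1 (0.820). For C2, at most 3.74 CPM, the list (Dse, Cebpd, Mgat1, Atp13a2 and Tmem33, 0.831 to 0.862) rests on very few UMIs.

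Across all monocyte-macrophage cells, the complement genes hardly differed between the libraries. A gene was taken as measured where 1 library or both reached 20 UMIs and 10 CPM, and as apart at 1.5-fold or more. Of the 7 measured members (C2 and Cfb fell short of 10 CPM), 0 were apart, against 1.56% of 7905 genes. The ratios of the knockdown label over the WT label were 1.02 for C1qa, 1.10 for C1qb, 1.04 for C1qc, 0.960 for C3, 1.06 for C3ar1, 0.974 for C5ar1 and 0.933 for Cfp. Their median log2 ratio was 0.03, beside -0.02 for all measured genes. Only the interval of C3 (0.914 to 1.01) included 1, but with 1 library per label the intervals of the other 6 do not carry the spread between mice. C2 had a ratio of 0.594 (0.445 to 0.788) on 82 and 132 UMIs.

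In neutrophils 0 of 7 measured members were apart, with 13.1% of 6034 genes apart there. C5ar1 had a ratio of 1.00, while C3 was at 0.718 (95% interval 0.613 to 0.842) from 368 and 278 UMIs. In dendritic cells 1 of 6 members was apart (11.4% of all measured genes), C1qc at 1.71 (1.42 to 2.06). These cells include the migratory ones, which gave 166 of the 256 C1qc UMIs in the knockdown label and 60 of 216 in the WT label. In type 1 and type 2 dendritic cells the C1qc ratio was 0.848 and 0.693. The pooled C1qc difference did not hold when the gates or doublets were treated differently, with ratios of 0.928 and 0.790. In T cells 0 of 3 were apart (20.4%), in type 1 dendritic cells 0 of 5 (12.8%), and in type 2 dendritic cells 1 of 4 (29.1%), C1qa at 0.653. That cell group counted only 19 and 32 cells.

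Migratory dendritic cells had 3 of 4 measured members apart, all higher in the knockdown label, against 24.4% of genes apart in either direction. These were C1qa at 867 and 263 CPM, C1qb at 396 and 127 CPM and C1qc at 592 and 132 CPM. The difference lay in 2 cells. Of the 520 C1q UMIs in 33 cells of the knockdown label, 85.0% came from 2 cells with 305 and 137 UMIs, and in the WT label 36.6% of 238 UMIs came from 3 of 54 cells. The median cell had 315 and 449.6 CPM, the opposite order. All 12 monocyte-macrophage markers had UMIs in these cells in both libraries, with a median of 9.24 and 11.8 per 10000 UMIs of a cell (range 2.74 to 228 and 0 to 283). The 2 C1q-rich cells stood at 221 and 228, the highest of the 33. C1q and the macrophage markers were thus high in the same cells, and the part of macrophage RNA in the result was not tested.

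Tumour cells had 6 of 8 measured members apart, all lower in the knockdown label, against 13.4% of genes. C1qa was at 0.321 (95% interval 0.261 to 0.393), C1qb at 0.392 (0.296 to 0.513) and C1qc at 0.309 (0.235 to 0.400). C3ar1 (7 and 35 UMIs), C5ar1 (8 and 37 UMIs) and Cfp (7 and 37 UMIs) had ratios of 0.336, 0.363 and 0.318. All 6 are genes that macrophages carried at far higher levels, and C1q in tumour cells was 162 and 486 CPM. The macrophage markers moved with them. All 12 had UMIs in both libraries, with a summed level of 798 and 1761 CPM and a median of 6.48 and 10.5 per 10000 UMIs (range 2.14 to 78.0 and 3.41 to 319.6). Of the C1q UMIs, 45.0% came from 3 of 49 cells and 59.7% from 5 of 97 cells, and the median cell had 96.6 and 221 CPM. With the highest doublet scores removed, the C1q ratio went from 0.334 to 0.797. The part of macrophage RNA in the result was not tested. The genes that tumour cells held above macrophages were nearer to equal, C3 at 0.868 (0.772 to 0.975) and C2 at 0.680 (0.515 to 0.891).

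**Figure D5:**
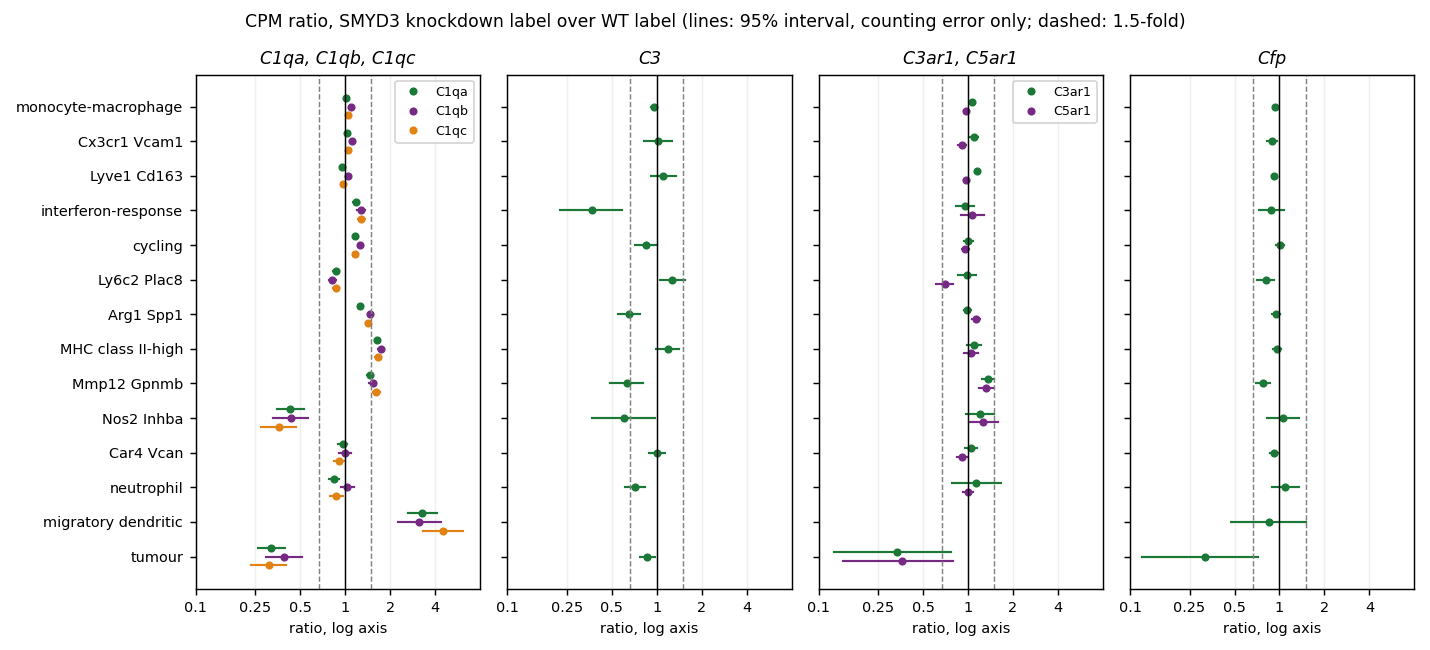
The horizontal log axis is the CPM ratio, knockdown label over WT label, in 14 groups of cells; points are measured genes, lines 95% intervals for counting error only, and dashed lines mark 1.5-fold in either direction. C1qa, C1qb and C1qc lie together in each group, near 1 in monocyte-macrophage cells and at 3.11 to 4.50 in migratory dendritic cells and 0.309 to 0.392 in tumour cells.

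Within the macrophage states, 12 of 73 measured pairs of a member and a state were apart. No pooled share over all genes was counted, and by state that share ran from 2.45% to 20.4%. The C1q chains varied together, so their pairs are not separate results. No member was apart in Lyve1 Cd163 (2.45% of all measured genes apart), Cx3cr1 Vcam1 (5.06%), Car4 Vcan (3.73%), Ly6c2 Plac8 (12.8%) or cycling cells (3.47%), nor in cells of no state (2.26%). In MHC class II-high cells 3 of 7 were apart (5.98%), C1qa at 1.64 (95% interval 1.59 to 1.69), C1qb at 1.73 (1.66 to 1.81) and C1qc at 1.66 (1.59 to 1.72). With all state thresholds doubled these ratios were 1.22, 1.33 and 1.4995, all under 1.5, while C3 (1.77) and C3ar1 (1.60) came to be apart. The markers of type 2 dendritic cells, which also carry MHC class II, were at 75.1 and 110.3 CPM in MHC class II-high cells, with Cd7 at 0 in both libraries and Flt3 at 0 in the knockdown label. The monocyte-macrophage markers were at 23922 and 21366 CPM, and the part of neither list was tested.

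In Mmp12 Gpnmb cells 3 of 7 members were apart (9.83%), C1qb at 1.53, C1qc at 1.62 and C3 at 0.629 (95% interval 0.486 to 0.809). Doubling the thresholds brought C1qb and C1qc to 1.00 each. In Nos2 Inhba cells 4 of 7 were apart (20.4%), C1qa at 0.430, C1qb at 0.434, C1qc at 0.360 and C3 at 0.606 (26 and 62 UMIs). There 5 of the 81 WT-label cells held 74.2% of the C1q UMIs, and with doubled thresholds the C1q genes were at 0.718, 0.735 and 0.870. Arg1 Spp1 cells had 1 of 7 apart (5.12%), C3 at 0.653 (0.553 to 0.772) from 299 and 279 UMIs. Interferon-response cells had 1 of 7 apart (19.1%), again C3, at 0.370 (0.226 to 0.587) from 25 and 77 UMIs. With doubled thresholds 9 of 72 pairs were apart, and only C3 in the Arg1 Spp1, Mmp12 Gpnmb and interferon-response cells was shared with the 12. The share of all genes apart was not counted at doubled thresholds, so the 9 pairs are not read as a result about the members.

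For the rest of the pathway, 43 further complement genes were listed, all found in the gene list. In monocyte-macrophage cells 14 were measured, of which 0 were higher and 1 lower in the knockdown label, against 1.56% of all measured genes apart. The lower gene was C6, a terminal-pathway component, at 7.65 and 12.3 CPM (0.620, 95% interval 0.559 to 0.687). C4b, the C4 that pairs with C2, was at 83.4 and 102 CPM, the lectin-pathway ficolin gene Fcna at 64.2 and 88.2 CPM, and Colec12, a collectin receptor, at 251 and 261 CPM. The membrane regulator Cr1l was at 56.3 and 57.4 CPM. Receptor genes were well covered, with Itgam at 601 and 583 CPM and Itgb2 at 239 and 267 CPM (the chains of complement receptor 3), and Vsig4, the macrophage receptor for C3 fragments, at 61.4 and 56.5 CPM. Genes linked to C1q binding, Calr (1100.4 and 1047 CPM), C1qbp (231 and 206 CPM), Lrp1 (280.2 and 304 CPM) and Cd93 (63.1 and 67.1 CPM), were within 1.5-fold between the libraries. The 8 genes Mbl1, Mbl2, Colec10, Cfi, C7, C8a, C8b and Cd55b had 0 UMIs in these cells in both libraries.

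C4b, Fcna and Vsig4 had their highest macrophage-state levels in Lyve1 Cd163 cells. In Lyve1 Cd163 cells C4b was at 209 and 219 CPM, Fcna at 166 and 217 CPM and Vsig4 at 169 and 177 CPM. In Cx3cr1 Vcam1 cells, highest in C1q, C4b was at 122 and 144 CPM, Fcna at 83.9 and 123 CPM and Vsig4 at 70.6 and 109.996 CPM. In Car4 Vcan cells C4b was at 11.7 and 11.8 CPM, Fcna at 9.59 and 8.01 CPM and Vsig4 at 2.50 and 2.12 CPM. Arg1 Spp1 cells differed between the libraries in 3 of 13 measured genes (5.12% of all measured genes), C4b lower (0.468), Fcna lower (0.654) and Vsig4 higher (3.44). Vsig4 was apart in the other direction, lower in the knockdown label, in Cx3cr1 Vcam1 cells, as was C6 (5.06%). It was also lower in interferon-response cells, as was Cd93 (19.1%). In Mmp12 Gpnmb cells Vsig4 and Itgax were apart, 1 higher and 1 lower (9.83%). In neutrophils 14 were measured, with 1 higher (Vsig4, 32 and 11 UMIs) and 0 lower, against 13.1% of all measured genes apart. In dendritic cells 9 were measured, with 0 higher and 1 lower (Clu, 29 and 68 UMIs), against 11.4% of all measured genes. In T cells 5 were measured, with 0 apart (20.4%). Tumour cells carried Serping1, the C1 inhibitor gene, at 522 and 438 CPM, Clu at 219.5 and 233 CPM, the C1 protease gene C1s1 at 51.7 and 56.9 CPM and C4b at 83.3 and 106 CPM. Of the 15 genes measured there, 0 were higher and 3 lower in the knockdown label (Colec12, C4bp and Itgam). Of all measured genes in tumour cells, 13.4% were apart in either direction.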

How the data were processed

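The authors deposited whole UMI counts per gene and cell barcode in 1 matrix, made with Cell Ranger 7.1.0 per the file headers. The build is mm10 per the submitters' processing notes. The annotation release and any equalising of depth on merging are not given in the sources used here. A deposited table ties each barcode to its library. Suffix 2 held 10186 barcodes (SMYD3 knockdown) and suffix 1 held 9265 (WT), with 22 sequences in both.

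Barcodes with fewer than 200 genes, fewer than 500 UMIs or over 20% mitochondrial UMIs were dropped. Each type was gated by a minimum number of detected markers and of marker UMIs per 10000. Monocyte-macrophage cells needed 4 markers and 75, neutrophils 3 and 50. The gate thresholds were set after marker counts had been seen, and the members and lists were chosen with earlier results of these data known. Types other than monocyte-macrophage also had to hold under 20 macrophage-marker UMIs per 10000, counted without Apoe, Cd14, Lyz2 and Fn1. Monocyte-macrophage cells had to hold under 20 neutrophil-marker UMIs per 10000, and types other than neutrophils under 50. Cells that passed the gates of 2 types or exceeded these limits, 303 (3.19%) and 226 (2.60%), were left out as possible doublets. Scrublet's own threshold marked 2 and 0 cells and was not usable, so an alternative removed the highest scores at 0.8% per 1000 cells. Of the monocyte-macrophage cells, 18.3% passed 2 or more state thresholds, and 10.0% to 24.7% of a state's cells lay within 25% above its threshold.

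UMIs were summed per library and group and divided by the total. Intervals at 95% are exact: Poisson for CPM, conditional binomial for ratios, Clopper-Pearson for shares. No test was possible with 1 library per label. The summing and ratio steps were tested on simulated data. All 9 members were named, other complement genes at 20 UMIs and 50 CPM in a class of at least 50 cells, and 5 similar genes per member. C6, Colec12, C4bp and other genes that were apart but under that limit were named after their values had been seen. The alternatives were equal weight per cell, thinning to 1000 UMIs, scaling by the median ratio, at most 10% mitochondrial UMIs, doubled gates and Scrublet removal. For the states, the thresholds were doubled. The median cell and the WT state mix were added after the data had been seen, and the result of that mix is not given here. Scrublet removal for the states and for the summed C1q ratios was also added then. Python 3.11.15, numpy 2.4.6, scipy 1.17.1, pandas 2.3.3, scanpy 1.11.5 and matplotlib 3.10.9 were used.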

Additional observations from a re-analysis of the deposited data

Results flagged for a closer look

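The C1q genes had ratios (knockdown label over WT label) in opposite directions in 2 gated cell types. In migratory dendritic cells the ratio was 3.29 for C1qa (95% interval 2.63 to 4.13), 3.11 for C1qb (2.24 to 4.35) and 4.50 for C1qc (3.33 to 6.15). In tumour cells it was 0.321 for C1qa (0.261 to 0.393), 0.392 for C1qb (0.296 to 0.513) and 0.309 for C1qc (0.235 to 0.400). With 1 library per label, the difference between the cell types was not tested. In both types a few cells held much of the C1q, 2 of 33 migratory dendritic cells 85.0% of it in the knockdown label and 5 of 97 tumour cells 59.7% in the WT label.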

How the results depend on the processing

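The counts of members apart in monocyte-macrophage cells and neutrophils were unchanged at 0 under 6 alternatives (equal weight per cell, thinning, scaling, mitochondrial limit, gates, Scrublet). In dendritic cells the count of 1 went to 0 with each cell weighing the same, and under the others it was 1. That gene was still C1qc with median-ratio scaling (1.75), thinning (1.82) and the mitochondrial limit (1.70), but C3ar1 with doubled gates and C1qb with the highest Scrublet scores removed, where the C1qc ratio reversed to 0.928 and 0.790. The summed C1q ratio of migratory dendritic cells, 3.55, reversed to 0.701 for the median cell and 0.886 with Scrublet removal. Over the alternatives, member ratios ran from 0.920 to 1.11 in monocyte-macrophage cells, from 0.706 to 1.33 in neutrophils and from 0.416 to 2.21 in dendritic cells. The cause was not tested. No paired analysis was possible because each label has 1 library, and no replicate could be left out for the same reason. Depth limits C2, Cfb and every group of under 100 cells.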
